A study of Mus musculus with 10 samples.

Results

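The immediate early response genes are a set of 10 genes, Fos, Fosb, Jun, Junb, Egr1, Ier2, Dusp1, Klf2, Klf4 and Klf6. They were chosen by name, with earlier results of these data known, out of 43629 genes listed in the count tables. They were read in RNA-seq of the dorsal telencephalon, the tissue that forms the cerebral cortex, of C57BL/6 mouse embryos at E14.5. The 5 controls carried no Cre and a single floxed Dot1l allele beside a wild-type one (Dot1l-cKO f/+), and the 5 Dot1l-cKO samples carried a single Cre allele and both Dot1l alleles floxed (Dot1l-cKO f/f). Neither group was given a stimulus, and both carry at least 1 floxed allele. Dot1l codes for the enzyme that methylates lysine 79 of histone H3. Cre acts in cells of the telencephalon. Loss of Dot1l and presence of the Cre allele cannot be told apart in these groups.

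Immediate early genes are transcribed within minutes of a stimulus, because the transcription factors that switch them on, such as SRF with its ELK partners and CREB, already sit in the cell and are activated by MAP kinases. FOS and JUN proteins pair to form the transcription factor AP-1. EGR1 is a zinc finger transcription factor, KLF2, KLF4 and KLF6 are zinc finger factors of the Krüppel-like family, DUSP1 is a phosphatase that switches MAP kinases off, and IER2 is a nuclear protein of the same early response. In brain tissue these genes are widely used as markers of neuronal activity, and they also respond to the handling and dissociation of tissue.

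The 10 samples held 54202349 to 66556034 counts each. The column names of the normalised tables start with a number, here called the header number, which the labels and the study's methods do not explain. It was 57 in replicates 2 and 3 of both groups, and these 4 samples had 0.0471% to 0.492% of their counts in mitochondrial rRNA genes, against 5.79% to 10.9% in the other 6. Dot1l itself was at 31.4 to 41.5 CPM (counts scaled to 1000000 by the normalised library size) in controls and 20.1 to 51.7 in Dot1l-cKO samples. The count over its whole gene therefore did not check the genotype labels, and exon-level reads were not analysed here. The 8 listed markers of the dorsal telencephalon summed to 1359 to 1639 CPM in controls and 1492 to 1674 CPM in Dot1l-cKO samples, and none of them was at 0, with 1 of 8 decreased (Pax6, log2 fold change -0.36, adjusted p = 0.0294, named after its value was seen) and 3 at an unadjusted p under 0.05. Microglial markers were higher in Dot1l-cKO samples, with 9 of 10 increased and a summed level of 40.6 to 72.3 CPM in controls against 83.7 to 124.3 CPM. Markers of the ventral telencephalon summed to 55.3 to 286.4 CPM in controls and 5.46 to 83.4 CPM in Dot1l-cKO samples, with 1 of 8 tested called decreased (Lhx6, also named after its value was seen), 7 of 8 at an unadjusted p under 0.05 and a median log2 fold change of -1.76.

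None of the immediate early response genes was called differentially expressed (DE, adjusted p under 0.05 in edgeR's quasi-likelihood test) between Dot1l-cKO and control in the fit without a block. With the replicate number or the header number as a block, 1 of them, Klf6, was increased. Of all 17039 genes, 1109 were increased with the replicate block and 1221 with the header number block, more than without a block. Of the 10 genes, 9 had enough counts to be tested, and Fosb did not. Among all 17039 genes tested, 1212 (7.11%) were DE, of which 966 (5.67%) were increased and 246 (1.44%) decreased. With the replicate number as a block, 495 genes were decreased, and without control replicate 1 or control replicate 4 the DE genes numbered 750 and 779. Before adjustment, 1 of the 9 genes, Klf6, had a p-value under 0.05, against 20.6% of all genes. DESeq2 gave 3 of the 10 genes under that p-value, against 4222 of 28447 genes with any count, and called 0 of the 10 DE. The median log2 fold change of the 9 genes was -0.066, that of all genes tested -0.0056, with 4 of the 9 above 0 and 5 below. All 10 genes had overlapping ranges in the 2 groups, whereas the groups did not overlap in 8.34% of all genes tested.

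Per kilobase of exon, Jun was the most abundant of the 10 genes in controls, at 32.7 ± 6.07 CPM per kb (SD, n = 5). Klf6 followed at 11.7 ± 0.912, Ier2 at 9.07 ± 3.88 and Dusp1 at 7.67 ± 2.43 CPM per kb. Ier2 overlapped both Klf6 and Dusp1 in its range, while Klf6 and Dusp1 did not overlap each other on this length. By the longest transcript instead, Dusp1 was at 10.98 ± 3.48 and Klf6 at 12.2 ± 0.948 CPM per kb, with Ier2 unchanged. The order of Dusp1 and Ier2, and the gap between Dusp1 and Klf6, thus depended on the length used. Junb stood at 1.83 ± 0.301, Klf4 at 1.06 ± 0.274 and Klf2 at 1.03 ± 0.431 CPM per kb, and the ranges of these neighbours overlapped too. The lowest were Fos at 0.294 ± 0.0589, Egr1 at 0.157 ± 0.0249 and Fosb at 0.00531 ± 0.0031 CPM per kb, and in controls none of these 3 overlapped another of the 10 genes. In Dot1l-cKO samples, per kilobase of exon, the order was the same except that Dusp1, at 6.88 CPM per kb, stood above Ier2, at 6.04. Their ranges again overlapped.

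**Figure D1:**
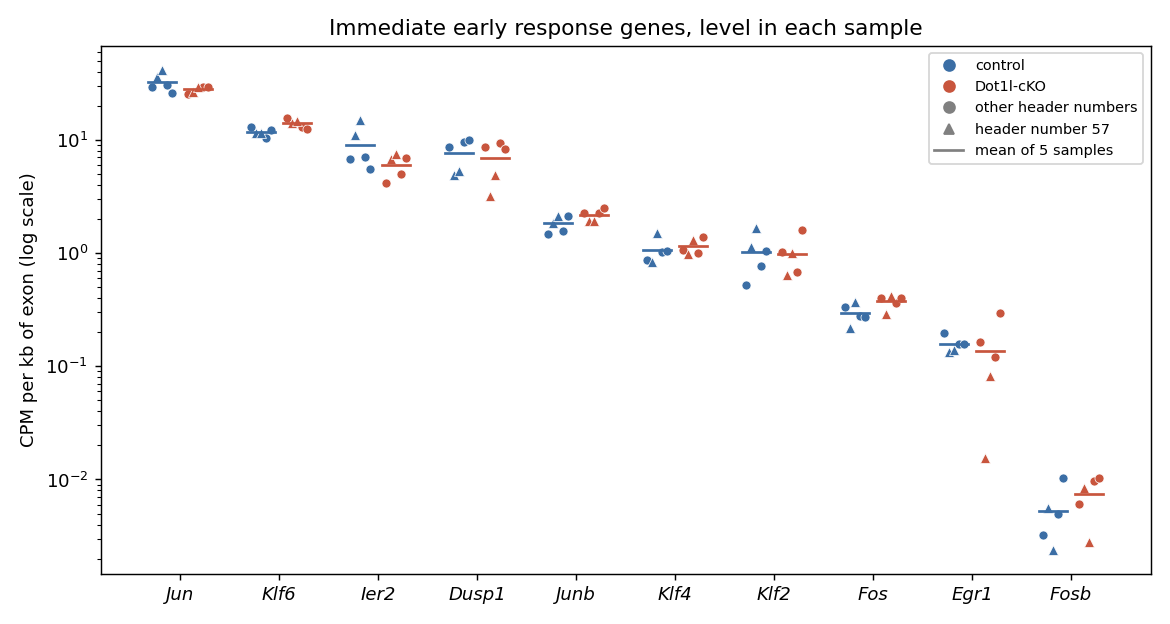
Level of each immediate early response gene in each of the 10 samples, in CPM per kilobase of exon on a log scale, with controls in blue, Dot1l-cKO samples in red, triangles for header number 57, circles for the other header numbers and a line at the mean of 5 samples. The levels run from Jun, with a control mean of 32.7, down to Fosb, with a control mean of 0.00531, and blue and red points overlap for every gene.

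The AP-1 subunit genes covered this whole range of levels, which is why the sequences before their start sites are shown. Stretches from a RefSeq table of promoters (GRCm38.p6) were searched for 8 of the 10 genes. Egr1 and Ier2 were not searched. Each line gives the 180 bases from 200 to 21 bases before the RefSeq start site, 5′ to 3′ on the strand of the gene, with matches to the searched motifs in capitals.
Fos, chr12:85473690-85473869, forward strand: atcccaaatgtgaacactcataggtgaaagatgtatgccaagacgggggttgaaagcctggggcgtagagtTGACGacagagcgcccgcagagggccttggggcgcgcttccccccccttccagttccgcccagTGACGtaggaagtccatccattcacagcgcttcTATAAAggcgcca
Fosb, chr7:19310066-19310245, reverse strand: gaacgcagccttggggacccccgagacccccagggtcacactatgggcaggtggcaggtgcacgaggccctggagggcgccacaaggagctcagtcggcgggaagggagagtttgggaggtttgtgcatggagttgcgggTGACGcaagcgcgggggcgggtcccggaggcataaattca
Jun, chr4:95052243-95052422, reverse strand: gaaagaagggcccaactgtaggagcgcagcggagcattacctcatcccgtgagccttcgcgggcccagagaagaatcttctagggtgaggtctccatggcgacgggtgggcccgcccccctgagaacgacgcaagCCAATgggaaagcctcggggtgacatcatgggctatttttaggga
Junb, chr8:84978769-84978948, reverse strand: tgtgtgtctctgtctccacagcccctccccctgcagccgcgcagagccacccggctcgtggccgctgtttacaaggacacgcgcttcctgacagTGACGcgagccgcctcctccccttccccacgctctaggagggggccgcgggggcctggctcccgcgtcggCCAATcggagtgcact

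The motifs were searched on both strands of these stretches. They were TGACG, the half-site of the cAMP response element, TGANTCA, the AP-1 site, TATAAA, the TATA box, CCAAT, and the CArG box bound by SRF. TGACG was found in 4 of the 8 genes searched (Fos, Fosb, Junb and Dusp1), against 13.7% of the 32851 promoters in the table over the same stretch. Fos held it at both -129 and -66 relative to the start site, Fosb at -60 and Junb at -106. TATAAA was found only in Fos among the 8, at -33, against 9.34% of all promoters. CCAAT was found in Jun, Junb and Klf6, 3 of 8, against 27.5%. The AP-1 site in the form TGANTCA (5.06% of all promoters) and the CArG box (1.13%) were found in none of the 8 over this stretch. Other forms of the AP-1 site were not searched. A match says only that the letters are present.

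Fos (ENSMUSG00000021250, chr12:85473890-85477273, forward strand, 4 exons in its longest transcript) codes for the founding member of the FOS family, which binds DNA only together with a JUN partner. Its level in control replicates 1 to 5 was 0.784, 0.509, 0.868, 0.654 and 0.646 CPM. The Dot1l-cKO samples, in the same order, held 0.943, 0.676, 0.980, 0.860 and 0.951 CPM, from 29 to 59 counts per sample. The Dot1l-cKO sample was higher than the control of the same replicate number in 5 of 5 pairs, but the groups overlapped because Dot1l-cKO replicate 2 lay below controls 1 and 3 and control replicate 3 above Dot1l-cKO replicate 4. The log2 fold change was 0.35 (SE 0.19, 95% interval -0.064 to 0.76, adjusted p = 0.334). The samples of header number 57 alone gave 0.28 and those of the other header numbers 0.40.

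Fosb (ENSMUSG00000003545, chr7:19302696-19310051, reverse strand), a close relative of Fos, was at the limit of detection. Each sample held 1 to 4 counts, which summed to 10 in the 5 controls and 14 in the 5 Dot1l-cKO samples. A floor of 3 counts per library covers most of these values, so no fold is given, and no difference was detectable at this depth.

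Jun (ENSMUSG00000052684, chr4:95049034-95052222, reverse strand, a single-exon gene) codes for the JUN protein that pairs with FOS or with itself. It shares 232 exon bases with Junos on the opposite strand, and the authors counted reads by strand. Its level in control replicates 1 to 5 was 93.9, 114.9, 132.1, 98.0 and 82.7 CPM. The Dot1l-cKO samples had 81.7, 85.0, 93.2, 92.8 and 92.6 CPM. The Dot1l-cKO samples lay close together, while control replicates 2 and 3, both with header number 57, were higher than all other samples, and the rest overlapped. Jun had a log2 fold change of -0.23 (SE 0.12, 95% interval -0.48 to 0.025, adjusted p = 0.298). Within header number 57 it was -0.45 (adjusted p = 0.206) and within the other samples -0.045 (adjusted p = 0.839).

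Junb (ENSMUSG00000052837, chr8:84974484-84978718, reverse strand) is a JUN family gene whose protein can hold back the activity of JUN. It shares 173 exon bases with Prdx2 on the opposite strand, and reads were counted by strand. Junb was at 3.40, 4.21, 4.85, 3.63 and 4.92 CPM in control replicates 1 to 5. Dot1l-cKO replicates had 5.21, 4.44, 4.39, 5.17 and 5.70 CPM in that order. It was higher in the Dot1l-cKO sample in 4 of 5 pairs of the same replicate number, and control replicates 3 and 5 lay within the Dot1l-cKO range. Junb had a log2 fold change of 0.25 (SE 0.14, 95% interval -0.062 to 0.55, adjusted p = 0.367). It was 0.42 in the samples with other header numbers and -0.018 within header number 57, so the sign was not the same in both.

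The 4 FOS family genes (Fos, Fosb, Fosl1 and Fosl2) summed to 1.68 to 2.42 CPM per kb in controls and 2.46 to 3.30 CPM per kb in Dot1l-cKO samples. Most of that sum came from Fosl2, since Fos and Fosb together were at 0.222 to 0.372 and 0.296 to 0.420 CPM per kb. The 3 JUN family genes (Jun, Junb and Jund) summed to 107.8 to 122.1 CPM per kb in controls and 112.2 to 130.3 CPM per kb in Dot1l-cKO samples. Jun and Junb together gave 28.1 to 43.5 and 27.9 to 31.5 CPM per kb of it. On this scale JUN family transcripts were more abundant than FOS family transcripts in every sample.

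Klf6 (ENSMUSG00000000078, chr13:5861482-5870394, forward strand, 4 exons in its longest transcript), a Krüppel-like factor known as a regulator of cell growth, came nearest to the threshold. Its level in control replicates 1 to 5 was 56.5, 50.5, 50.5, 45.8 and 53.8 CPM. Its level in Dot1l-cKO replicates was 68.5, 62.3, 64.9, 56.6 and 55.1 CPM. The Dot1l-cKO sample was higher in 5 of 5 pairs of the same replicate number, and only control replicate 1 reached into the Dot1l-cKO range, above replicate 5. Klf6 had a log2 fold change of 0.26 (SE 0.081, 95% interval 0.081 to 0.43, adjusted p = 0.0836). With the replicate number as a block the log2 fold change was 0.26 and the adjusted p 0.0425. With the header number as a block they were 0.26 and 0.027, so the gene passed the threshold in both blocked fits. The header number block is the replicate block with replicates 2 and 3 merged, so these fits are not separate evidence. It was 0.35 within header number 57 (adjusted p = 0.204) and 0.20 within the other samples (adjusted p = 0.351). Microglial and ventral telencephalic markers also moved with genotype, as given above, and their part in this difference was not tested.

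Klf2 (ENSMUSG00000055148, chr8:72319033-72321656, forward strand) and Klf4 (ENSMUSG00000003032, chr4:55527143-55532466, reverse strand) are close relatives that are both known for their expression in vascular endothelium, and KLF4 also for its role in pluripotent cells. Klf2 was at 0.965, 2.09, 3.08, 1.43 and 1.92 CPM in control replicates 1 to 5. The Dot1l-cKO values of Klf2 were 1.87, 1.18, 1.84, 1.25 and 2.95 CPM. The highest values were those of control replicate 3 and Dot1l-cKO replicate 5, and the groups overlapped over nearly their whole range. The log2 fold change of Klf2 was -0.066 (SE 0.33, 95% interval -0.78 to 0.65, adjusted p = 0.937). The samples of header number 57 alone gave -0.76 and the others 0.48.

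Klf4 was at 2.63, 2.54, 4.63, 3.11 and 3.20 CPM in control replicates 1 to 5, and the corresponding Dot1l-cKO values were 3.26, 3.00, 3.99, 3.05 and 4.21 CPM. Control replicate 3 and Dot1l-cKO replicate 5 were again the highest of their groups, and the groups overlapped. The log2 fold change of Klf4 was 0.12 (SE 0.18, 95% interval -0.29 to 0.52, adjusted p = 0.774). The summed level of 12 endothelial markers was 164.9 to 298.9 CPM in controls and 151.0 to 341.9 CPM in Dot1l-cKO samples, with 0 of 12 DE by edgeR and 0 under an unadjusted p of 0.05. It was highest in control replicate 3 and Dot1l-cKO replicate 5, the same samples. In bulk tissue, fewer cells of a type and less RNA per cell cannot be told apart.

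Dusp1 (ENSMUSG00000024190, chr17:26505590-26562128, reverse strand) codes for the nuclear phosphatase that removes phosphate from ERK, JNK and p38. It shares 11 exon bases with Ergic1 on the opposite strand. Its level in control replicates 1 to 5 was 28.5, 16.0, 17.6, 31.6 and 33.3 CPM. Among Dot1l-cKO samples it was 28.8, 10.6, 16.1, 31.2 and 27.3 CPM. In each group replicates 2 and 3, those with header number 57, were the lowest, and the genotypes overlapped. The log2 fold change between genotypes was -0.16 (SE 0.30, 95% interval -0.82 to 0.51, adjusted p = 0.822).

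Ier2 (ENSMUSG00000053560, chr8:84661331-84662852, reverse strand, a single-exon gene) was highest in other samples than Dusp1. Its level in control replicates 1 to 5 was 10.3, 17.0, 22.7, 10.7 and 8.42 CPM. Among Dot1l-cKO samples it was 6.26, 10.2, 11.5, 7.56 and 10.4 CPM. Control replicates 2 and 3 stood above all other samples, and the rest of the groups overlapped. The log2 fold change between genotypes was -0.59 (SE 0.27, 95% interval -1.185 to 0.0072, adjusted p = 0.250), and it was -0.85 within header number 57 (adjusted p = 0.181) and -0.28 within the other samples (adjusted p = 0.514).

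Egr1 (ENSMUSG00000038418), the zinc finger factor that is the target of the NAB corepressors, was at 0.885, 0.596, 0.629, 0.701 and 0.71 CPM in control replicates 1 to 5. Dot1l-cKO replicates held 0.736, 0.0694, 0.368, 0.543 and 1.337 CPM, from 4 counts in replicate 2 to 83 counts in replicate 5. The controls lay close together, while the Dot1l-cKO samples held both the lowest and the highest value of the 10. Egr1 had a log2 fold change of -0.20 (SE 0.50, 95% interval -1.30 to 0.905, adjusted p = 0.867), which leaves a wide interval. Without Dot1l-cKO replicate 2 the log2 fold change was 0.086 and without Dot1l-cKO replicate 5 it was -0.72, and none of the 10 fits that left out a sample passed the threshold.

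**Figure D2:**
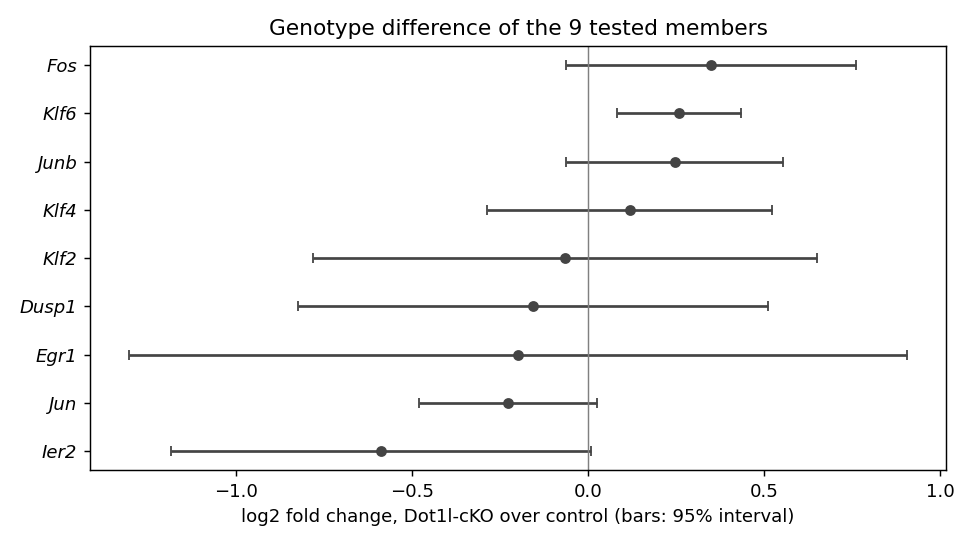
Log2 fold change of Dot1l-cKO over control for the 9 tested immediate early response genes on the horizontal axis, as points with 95% intervals from the edgeR fit over 5 samples per group. The interval of Klf6, 0.081 to 0.43, lies above 0 before adjustment for the number of genes, and the other 8 intervals include 0.

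Dusp1 and Ier2 passed the threshold by header number and not by genotype. With genotype in the model, 1946 of all genes tested (11.4%) differed between the 4 samples with header number 57 and the other 6, a comparison chosen after values were seen. Of the 9 tested genes, 2 did. Dusp1 was lower with header number 57, at 10.6 to 17.6 CPM against 27.3 to 33.3 CPM with no overlap (log2 difference -1.005, adjusted p = 0.0012). Ier2 was higher, at 10.2 to 22.7 CPM against 6.26 to 10.7 CPM with a small overlap (log2 difference 0.73, adjusted p = 0.0235). Egr1 had a log2 difference of -1.05 that did not pass (adjusted p = 0.164). Mitochondrial rRNA differed between the same samples, as given above, and its part in these differences was not tested.

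The genotype difference itself was also compared between header number 57 and the other samples. No gene of the 17039 passed (0% of all genes by edgeR), with 1071 genes at an unadjusted p under 0.05. Among the 9 genes, Jun had the smallest p, at 0.0183 (adjusted p = 0.728), with a genotype difference lower by 0.43 on the log2 scale in header number 57. For Klf2 the genotype difference was lower by 1.26 and for Egr1 by 1.67 on the log2 scale, with unadjusted p of 0.052 and 0.0556.

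**Figure D3:**
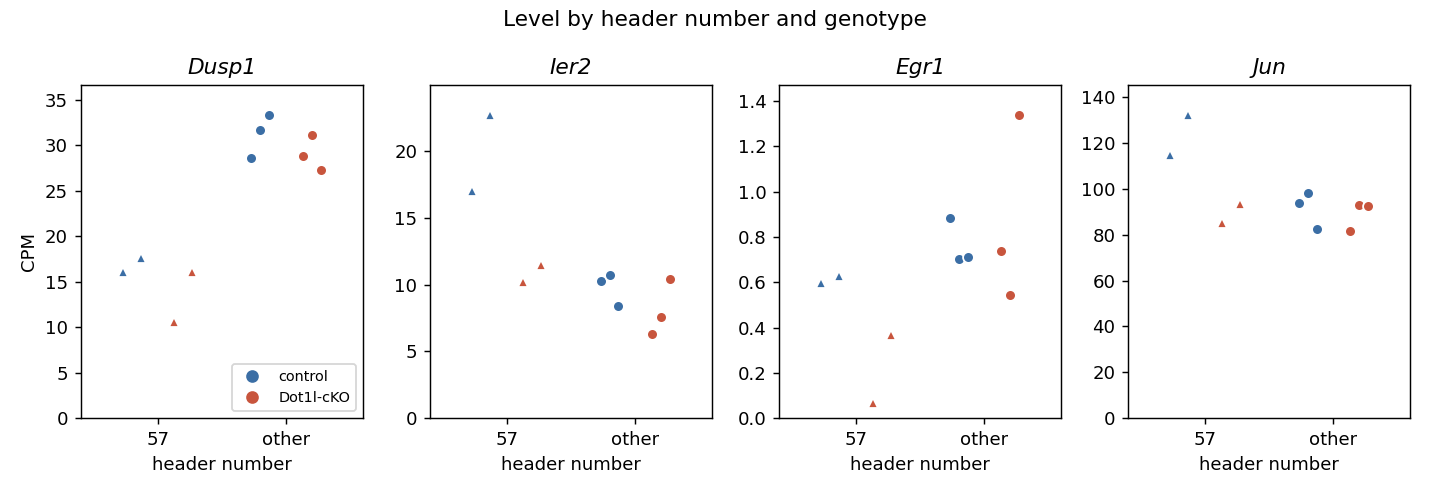
CPM of Dusp1, Ier2, Egr1 and Jun on the vertical axis, split by header number (57, triangles, against the others, circles) and by genotype (control in blue, Dot1l-cKO in red), 1 point per sample. Dusp1 lies at 10.6 to 17.6 with header number 57 and at 27.3 to 33.3 otherwise, and the 2 control samples of header number 57 stand highest for Ier2 and Jun.

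Within genotypes, the 9 genes lay on both sides of the middle of genes of like level in their spread between samples. Only the genotype means were removed, so differences by header number, as given above for Dusp1 and Ier2, remain in this spread. The residual SD of Dusp1 on the log2 CPM scale lay at percentile 97.7 of the 2417 genes within 0.5 log2 CPM of it, that of Egr1 at percentile 93.0 and that of Ier2 at percentile 92.0. Klf2 was at percentile 84.2 and Jun at 70.3. Klf4, Klf6 and Junb were at percentiles 47.6, 35.2 and 33.4, and Fos, whose level was low and even, at 14.9. These percentiles are a description and carry no test.

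Some samples were high or low for several of these genes at once. Control replicate 3 was the highest control for Fos, Jun, Ier2, Klf2 and Klf4, and Dot1l-cKO replicate 5 the highest of its group for Fosb, Junb, Egr1, Klf2 and Klf4. Dot1l-cKO replicate 2 was the lowest of its group for Fos, Egr1, Dusp1, Klf2 and Klf4, and control replicate 2 the lowest control for Fos, Egr1, Dusp1 and Klf4. Markers of meninges, the connective tissue around the brain, summed to 864.5 CPM in control replicate 3 and 792.1 CPM in Dot1l-cKO replicate 5, against 25.15 to 313.4 CPM in the other 8 samples. In Dot1l-cKO replicate 2 meningeal markers summed to 33.9 CPM and endothelial markers to 151.0 CPM, the lowest endothelial sum of the 10. Meningeal sums were lower still in Dot1l-cKO replicate 4 (30.8 CPM) and control replicate 4 (25.15 CPM). Those samples were the lowest of their groups for 0 and 1 of the 10 genes. Control replicate 2 had a meningeal sum of 211.6 CPM. Choroid plexus markers ranged from 3.08 to 647.1 CPM in controls and from 5.13 to 158.5 CPM in Dot1l-cKO samples, and erythroid markers from 576.8 to 2486 and from 877.7 to 2164 CPM. For both lists control replicate 3 and Dot1l-cKO replicate 5 were the highest of their groups. Pericyte markers ranged from 86.95 to 138.2 and from 80.7 to 151.4 CPM, highest in control replicate 5 and Dot1l-cKO replicate 5. In each of these lists 0 genes were DE between genotypes, by edgeR, and 0 had an unadjusted p under 0.05. Microglial sums, which differed by genotype as given above, were also highest in control replicate 3 and Dot1l-cKO replicate 5 within their groups. No listed marker was at 0 in all samples, and the part of these cell types in the levels of the immediate early response genes was not tested.

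**Figure D4:**
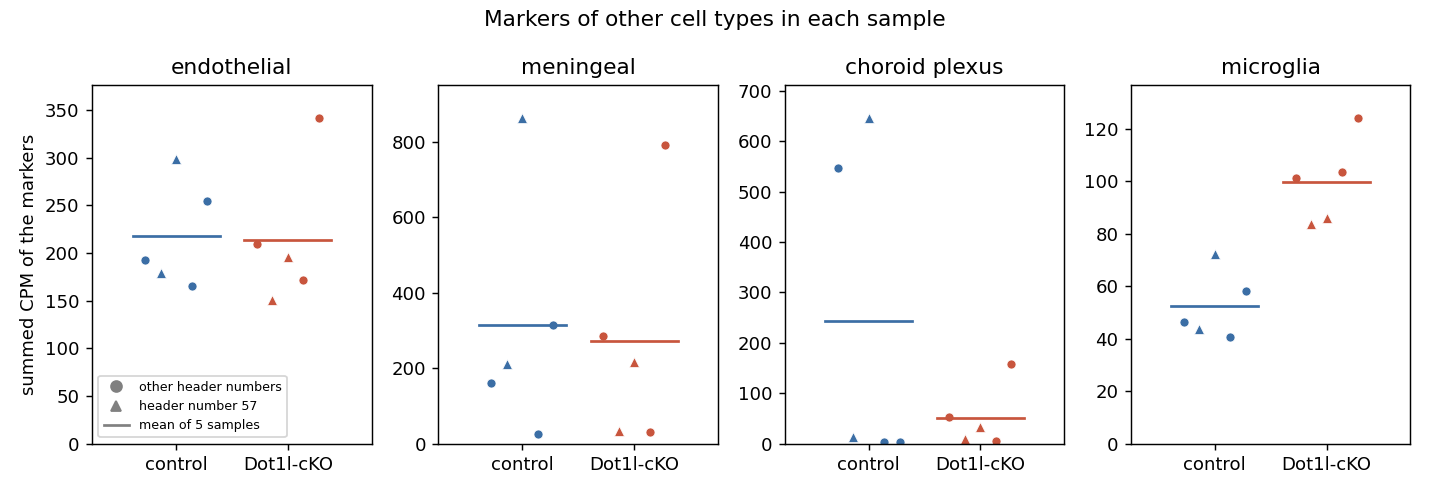
Summed CPM of marker genes of endothelium, meninges, choroid plexus and microglia in each sample, for controls (blue) and Dot1l-cKO samples (red), with triangles for header number 57, circles for the other header numbers and a line at the mean of 5 samples. Control replicate 3 (298.9) and Dot1l-cKO replicate 5 (341.9) are highest in their groups for endothelial markers, and the microglial sums of the genotypes do not overlap (40.6 to 72.3 against 83.7 to 124.3).

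The genes most like the immediate early response genes across samples were Slc41a1 (Pearson r = 0.98), Bcat2 (r = 0.98), Grn (r = 0.98), St5 (r = 0.97) and Mxra7 (r = 0.97). Likeness was the correlation over the 10 samples of log2 CPM, with the means of genotype and header number 57 removed, with the mean of the 9 genes scaled to the same SD, among the 12749 genes whose mean log2 CPM was 1 or higher. These values are a description, chosen as the highest of that many genes, and no p is given. Egr1 (0.86), Klf2 (0.84) and Klf4 (0.84) followed this mean most closely of the 9, Fos, Ier2, Jun, Dusp1 and Junb had r of 0.75, 0.72, 0.71, 0.70 and 0.64, and Klf6 did not follow it (r = -0.16). Each of the 9 is part of the mean it was compared with.

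Some related genes outside the set passed the test. Of 125 genes in 7 related lists, 120 were tested, and 9 of these were increased and 1 decreased, against 5.67% and 1.44% of all genes. The count fell from 10 to 3 without control replicate 1 or control replicate 4, to 5 without Dot1l-cKO replicate 1, to 4 without Dot1l-cKO replicate 3 and to 6 without Dot1l-cKO replicate 5. Within header number 57 alone it was 0, with 1 DE gene among all genes. Microglial markers were higher and ventral telencephalic markers lower in Dot1l-cKO samples, as given above, and their part in these differences was not tested.

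Among 12 other AP-1 and partner genes, 11 were tested, 2 were increased and 0 decreased, with a median log2 fold change of 0.15. Jdp2, a bZIP protein that binds JUN and represses AP-1 sites, was at 2.57 to 3.55 CPM in controls (median 2.94) and 4.06 to 4.63 CPM in Dot1l-cKO samples (median 4.13), with no overlap. Its log2 fold change was 0.49 (SE 0.12, adjusted p = 0.0359). Fosl2, which codes for the FOS family protein FRA2, was at 14.1 to 20.7 CPM (median 19.5) in controls and 20.9 to 27.9 CPM (median 26.4) in Dot1l-cKO samples, also without overlap. Its log2 fold change was 0.43 (SE 0.12, adjusted p = 0.0474). Both calls lay close to the threshold, and they held in 1 and 2 of the 10 fits that left out a sample.

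Among 35 other rapid response genes, 33 were tested, 4 were increased and 0 decreased, and the median log2 fold change was -0.069. The largest of the 4 was that of Nab2, a corepressor that binds EGR proteins. It was at 4.05 to 7.31 CPM (median 5.81) in controls and 11.2 to 14.3 CPM (median 13.0) in Dot1l-cKO samples, with no overlap. Its log2 fold change was 1.18 (SE 0.15, adjusted p = 0.000841), while its partner gene Egr1 did not pass. Nab2 passed in all 10 fits that left out a sample.

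Gadd45a, a stress response gene that restrains the cell cycle, was at 2.865 to 5.57 CPM in controls and 5.83 to 8.91 CPM in Dot1l-cKO samples (log2 fold change 0.89, SE 0.20, adjusted p = 0.0219). The orphan nuclear receptor gene Nr4a3 was at 17.35 to 22.5 CPM in controls and 20.5 to 40.9 CPM in Dot1l-cKO samples, which overlapped (log2 fold change 0.69, SE 0.16, adjusted p = 0.0248). Csrnp1, the fourth, named because it completes the count, had a log2 fold change of 0.47 (adjusted p = 0.0334). Leaving out a sample kept the call of Gadd45a in 7, of Nr4a3 in 4 and of Csrnp1 in 3 of 10 fits. Egr2 and Egr4 of this list had too few counts to be tested.

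Among 14 other KLF genes, 12 were tested, 2 were increased and 0 decreased, with a median log2 fold change of -0.11. Klf9, a gene known to respond to thyroid hormone and glucocorticoid, was at 2.50 to 4.37 CPM in controls and 4.72 to 5.60 CPM in Dot1l-cKO samples (log2 fold change 0.73, SE 0.16, adjusted p = 0.0204). Klf15 was at 6.45 to 7.68 CPM in controls and 9.44 to 11.07 CPM in Dot1l-cKO samples (log2 fold change 0.54, SE 0.09, adjusted p = 0.00465). Neither gene overlapped between the groups, and Klf15 passed in all 10 fits that left out a sample, Klf9 in 7. Klf14 and Klf17 had too few counts to be tested.

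The genes that transmit the signal to the immediate early response genes were not called in the fit without a block. Of 33 genes of receptors, signalling proteins and transcription factors, 0 were DE in that edgeR fit and 4 had an unadjusted p under 0.05. The count of 0 did not hold under every alternative fit. Of 9 other MAP kinase phosphatase genes, relatives of Dusp1, 0 were DE and 1 had an unadjusted p under 0.05 by edgeR. It was Dusp16, at 40.3 to 62.5 CPM in controls and 38.2 to 43.4 CPM in Dot1l-cKO samples (log2 fold change -0.38, SE 0.11, adjusted p = 0.0638). Dusp16 passed with DESeq2 (adjusted p = 0.0114), with DESeq2 size factors in edgeR (0.0452) and without control replicate 5 (0.0113). The medians of these lists were -0.088 and -0.0054.

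Of 12 delayed targets of ERK signalling, 1 was increased and 1 decreased, with a median log2 fold change of -0.063. Spry2, an inhibitor of receptor tyrosine kinase signalling, was at 11.96 to 15.9 CPM in controls and 16.2 to 19.1 CPM in Dot1l-cKO samples (log2 fold change 0.41, SE 0.09, adjusted p = 0.0182). Ccnd1, which codes for cyclin D1 and is a target of AP-1, was at 64.1 to 112.2 CPM in controls and 34.0 to 57.2 CPM in Dot1l-cKO samples (log2 fold change -0.90, SE 0.18, adjusted p = 0.0106). Neither overlapped between the groups, and Ccnd1 passed in all 10 fits that left out a sample, Spry2 in 7. Of 12 heat shock genes, which also respond to handling, 0 were DE by edgeR and 0 had an unadjusted p under 0.05. The smallest p among them was that of Hspa1b, at 0.747 to 2.23 CPM in controls and 0.814 to 1.21 CPM in Dot1l-cKO samples (log2 fold change -0.44, adjusted p = 0.439), a gene with a near-identical copy, Hspa1a, so that its counts are uncertain.

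**Figure D5:**
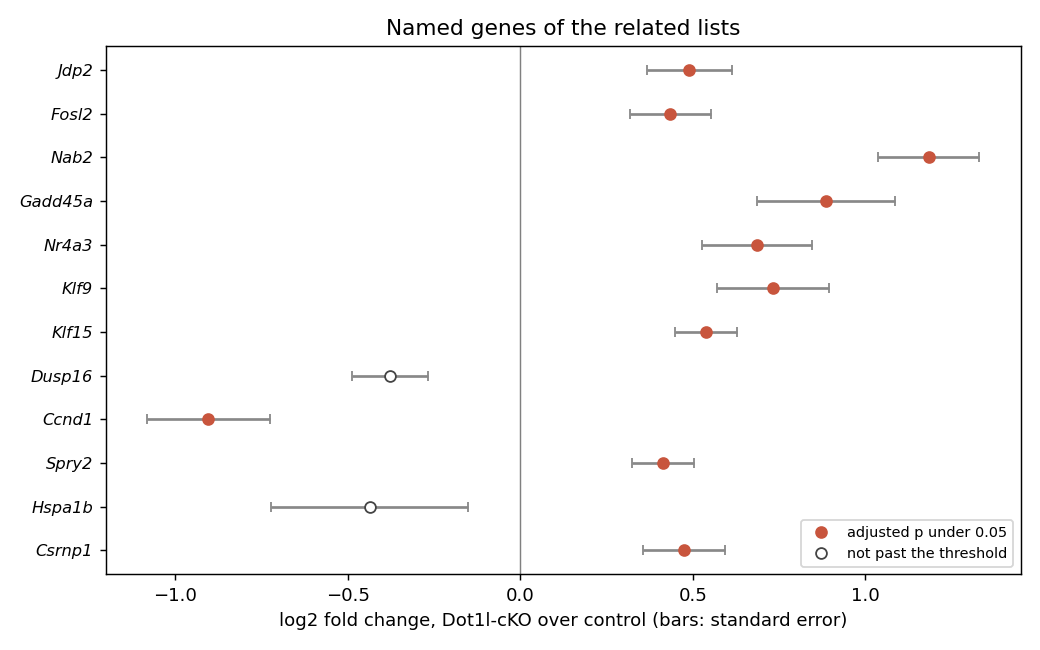
Log2 fold change of Dot1l-cKO over control, with standard error, for the named genes of the related lists, with filled points for an adjusted p under 0.05 and open points otherwise. Nab2 (1.18) lies farthest above 0 and Ccnd1 (-0.90) farthest below, and Dusp16 and Hspa1b did not pass.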

How the data were processed

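The deposited raw tables give counts per gene, which the authors made from stranded, rRNA-depleted, paired-end libraries with Trim Galore 0.2.8, TopHat2 2.0.9 on mm10 and strand-specific HTSeq 0.6.0. The deposited normalised signal tables hold these counts divided by DESeq2 1.6.1 size factors of the authors, and served only for an alternative and the header number. Symbols matched 42462 of 43629 identifiers through GENCODE (GRCm38), the source of coordinates, and unmatched identifiers held 0.268% of the counts.

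Groups came from the sample titles. Genes kept by filterByExpr were tested with edgeR 4.0.16 (R 4.3.3, TMM, quasi-likelihood, no covariate, Benjamini-Hochberg adjustment over 17039 genes). The standard error is the log2 fold change over the root of F, and 95% intervals use the t quantile of that fit, so both are approximate. CPM use the normalised library size. Level per kb uses the union of annotated exons, or the longest transcript where stated. The fit was checked on simulated counts. The labels do not say that the samples came from separate litters. Replicates of a group differed beyond sampling noise (chi-square per degree of freedom at least 33.4 in 20 pairs). Samples with the same replicate number deviated together, with correlations of 0.229, 0.349, 0.145, 0.597 and 0.131 of their deviations from the group means. The highest correlation with another number was 0.0265, 0.35, 0.446, 0.0779 and 0.294, above the own number in replicates 2, 3 and 5. Replicates 2 and 3 share header number 57, so for them another replicate number can be the same header number. All 5 own-number values were above 0.1, and fits with that block were also made.

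The genes and lists were chosen with earlier results of these data known. Named genes are the 10 genes, at most 3 per related list (largest DE changes, or the smallest p) and the 5 most alike. A gene of this rule is not reported here. Alternatives were DESeq2 1.42.0, its size factors in edgeR, no filter, at least 10 counts in every sample, blocks of replicate or header number, each header number set alone, no mitochondrial genes, Xist as a covariate, limma 3.58.1 on log2(normalised count + 1), an adjusted p under 0.01, and each sample left out. Intervals and counts cover counting error and the spread between these samples only.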

Additional observations from a re-analysis of the deposited data

Results flagged for a closer look

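In 44 groups of 5 samples examined, 2 held a sample set apart from the others by a gap large against the range of the group, where chance flags about 1 in 20. For Jdp2, Dot1l-cKO replicate 2 was high, at 4.63 CPM against a group median of 4.13, with a gap of 0.834 of the range on the log2 scale. For Fosl2, control replicate 2 was low, at 14.1 CPM against a group median of 19.5, with a gap of 0.757 of the range. Neither is one of the 10 immediate early response genes.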

How the results depend on the processing

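None of the 9 tested immediate early response genes was DE under 9 of 11 alternative fits or any of the 10 fits that left out a sample, and 1, Klf6, was increased with the replicate block and with the header number block (1 in each). The replicate block changed no other call among the 9. The header number block differs from it only in that replicates 2 and 3 are merged. No replicate block could be set beside the comparison by header number.

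Of all genes, 2011 were DE with DESeq2 (663 decreased), 1 within header number 57 alone (1 increased, 0 decreased), 745 within the other samples (590 and 155) and 495 at an adjusted p under 0.01 (422 and 73). The replicate block gave 1109 increased and 495 decreased genes, and the header number block 1221 and 597. Leaving out a sample gave 750 to 1357 DE genes, 624 to 1076 increased and 126 to 343 decreased. In the related lists, 0 genes were DE within header number 57 alone (0 increased, 0 decreased) and 2 at an adjusted p under 0.01 (2 increased, 0 decreased). Decreased genes of these lists numbered 4 with DESeq2, 3 with its size factors, and 2 each with the replicate block, the header number block, no mitochondrial genes and limma. Leaving out a sample gave 3 to 11 DE genes of these lists, 2 to 10 increased and 1 to 3 decreased. Fits within header number 57, and each fit without a sample, use fewer samples. The cause of the other shifts was not tested.

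Depth limits the lowest genes most, since Fosb held 1 to 4 counts and Egr1 as few as 4. The sign of the log2 fold change was not stable for Klf2, which turned positive in 3 of 10 fits without a sample and ranged from -0.76 to 0.48 over the other alternatives, or for Egr1, which ranged from -1.46 to 0.19. Dusp1 was at 0.024 without Dot1l-cKO replicate 2, Klf4 at -0.019 and Junb at -0.018 within header number 57.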
